A study of Homo sapiens with 8 samples.

Results

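HepG2 cells treated with genistein were compared directly with HepG2 cells treated with BMP6. The libraries were those titled genistein replicates 1 to 3 and BMP6 replicates 1 and 2, 5 of the 8 libraries of the series. HepG2 is an established human hepatocellular carcinoma line that is widely used as a model of hepatocytes. Genistein, an isoflavone found in soy, inhibits tyrosine kinases and binds oestrogen receptors. The series design gives its dose as 10 micromolar, while the treatment protocol prints 10 mM, and the difference between them was not resolved. BMP6 is a bone morphogenetic protein and was given at 50 ng/ml. Both treatments lasted 18 h in medium with 1% serum, after 8 h of equilibration, and every well, treated or not, held 1% DMSO. The 3 DMSO libraries (vehicle only) took no part in the test and are shown as a reference. The submitters describe the libraries of a group as biological replicates. Transcript levels are FPKM (fragments scaled to transcript length and to the mapped fragments of the library) as the authors deposited them, and the sequencing depth behind them is unknown.

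BMP6 is the ligand through which hepatocytes read body iron. It binds BMP receptors together with the co-receptor hemojuvelin, the receptors phosphorylate SMAD proteins, and these drive HAMP, the gene of the iron hormone hepcidin. TMPRSS6, a membrane protease, restrains this route by cleaving hemojuvelin, and inhibitory SMADs and ID proteins are well known targets of the same signal. Genistein is not a ligand of this pathway and is known for acting on kinases, nuclear receptors and topoisomerases. The title of the series states that genistein increases hepcidin expression in hepatocytes, so the direct comparison asks how its transcriptome differs from that under the physiological inducer.

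The hepatocyte identity of the cells was checked first. All 10 hepatocyte markers, among them ALB, APOB and HNF4A, were above 1 FPKM in each of the 5 libraries, and their summed level ranged from 139836 to 211414 FPKM after genistein and from 178038 to 240621 FPKM after BMP6. The 5 endothelial markers found in the files summed to 0 FPKM in all 3 genistein libraries and in BMP6 2, and to 1.71 FPKM in BMP6 1. Of 7 macrophage and leukocyte markers 4 were listed at 0 in all 5 libraries (PTPRC, CSF1R, CD3E and MS4A1), while LYZ, CD68 and CD14 were above 1 FPKM in each, and the list summed to 1242 to 1955 FPKM after genistein and to 1562 and 2401 FPKM after BMP6, mostly from LYZ. Of 8 stellate and fibroblast markers 6 were at 0 in all 5 libraries, among them COL1A1, COL3A1 and DCN, and the sum of 139 to 179 FPKM after genistein and of 149 and 261 FPKM after BMP6 came mostly from ACTA2. The 4 biliary markers summed to 526 to 1118 FPKM after genistein and to 314 and 2115 FPKM after BMP6. The part of these genes in the results was not tested. Libraries of a treatment differed among themselves. The BMP6 pair correlated at 0.829 across the tested genes, below the 0.875 of BMP6 1 with genistein 3, while the genistein libraries correlated at 0.903 to 0.957. Genistein 2 had 1697 of the tested genes at 0, against 131 to 577 in the other libraries. Transcript length moved with these differences. Across 11562 genes with a known length, the excess of BMP6 1 over BMP6 2 correlated with length at Spearman rho 0.426, and the deviation of genistein 3 from its group at 0.358. The difference between the treatments, which averages both BMP6 libraries, correlated with length at 0.048. With the genistein mean set against BMP6 2 alone the correlation was 0.303, and against BMP6 1 alone it was -0.198. The part of length in the results below was not tested, and values are given for each library.

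The promoter of HAMP is shown first because it carries the element through which BMP signalling is known to act, and HAMP was among the genes that separated the treatments most. That of LCN15, a called gene listed at 0 in every genistein and DMSO library, stands beside it. Both run from 250 bases before the gene start to 50 after it, 5′ to 3′ on the gene's strand, from RefSeq on GRCh38.p14 (HAMP chr19:35282278-35282577, plus strand, and LCN15 chr9:136764469-136764768, minus strand). Capitals mark GGCGCC, the core of the BMP response element, searched on both strands.
HAMP: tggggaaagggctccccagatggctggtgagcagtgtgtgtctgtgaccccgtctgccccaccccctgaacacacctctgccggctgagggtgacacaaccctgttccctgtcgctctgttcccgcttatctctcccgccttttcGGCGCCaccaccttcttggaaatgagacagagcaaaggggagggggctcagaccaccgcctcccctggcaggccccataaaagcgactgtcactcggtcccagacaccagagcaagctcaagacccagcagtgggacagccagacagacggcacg
LCN15: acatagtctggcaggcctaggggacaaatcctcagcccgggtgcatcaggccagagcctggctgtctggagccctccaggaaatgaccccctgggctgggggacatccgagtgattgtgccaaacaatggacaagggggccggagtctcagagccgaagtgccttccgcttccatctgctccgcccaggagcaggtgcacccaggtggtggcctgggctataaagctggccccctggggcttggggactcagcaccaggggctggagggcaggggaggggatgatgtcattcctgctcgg
The HAMP window holds 1 match, which begins 105 bases before the gene start, and the LCN15 window holds none. The motif is common: 19.0% of 27305 RefSeq promoters of this length hold it. Among genes called lower after genistein it stood in 2 of the 6 with a promoter in the table (HAMP and ISM2), and among genes called higher in 3 of 16 (AREG, RBM24 and SLC22A15). The palindrome GTCTAGAC, another SMAD motif, was in 0.201% of all promoters and in none of these 22. A match is a description of letters and does not show that a factor binds.

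HAMP measured 22.2, 34.4 and 22.8 FPKM in the genistein libraries 1, 2 and 3, whereas BMP6 1 had 2563 FPKM and BMP6 2 had 6425 FPKM (ENSG00000105697; hg18, chromosome 19, 40465250 to 40467886). It was listed at 0 in all 3 DMSO libraries. Both treatments therefore had HAMP transcript that the vehicle libraries did not list, and every BMP6 library lay far above every genistein library. The log2 difference, genistein minus BMP6, was -7.24 ± 0.50 (SE; limma adjusted p = 0.0284), which is 151-fold on the FPKM + 1 scale. An exact two-sided permutation test over 10 regroupings, which doubles the smaller tail, gave p = 0.2. That is the smallest value this form of the test can give with 3 libraries against 2. The limma call was lost without any single genistein library, with log2 differences of -7.13, -7.43 and -7.15 and adjusted p of 0.34, 0.173 and 0.217 without genistein 1, 2 and 3, and with array weights (-7.30, adjusted p = 0.0576). In bulk RNA, fewer cells that express a gene and less RNA per cell cannot be told apart.

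Other BMP and SMAD target genes did not pass the test on the 5 libraries and differed in direction. Among all 17 tested members, HAMP included, 10 had a negative and 7 a positive log2 difference, and among the 15 tested without BMP6 2 the split was 6 negative and 9 positive. Of 17 tested members of the list HAMP was the 1 that passed, and it was lower after genistein, against 0.107% of all tested genes called lower. ATOH8, a transcription factor gene that responds to BMP signals in liver, was listed at 0 in all genistein and DMSO libraries and stood at 23.8 and 129.7 FPKM after BMP6 (limma adjusted p = 0.0751). ID2, an inhibitor of differentiation, stood at 384, 258 and 262 FPKM after genistein and at 1064 and 1810 FPKM after BMP6 (log2 difference -2.22 ± 0.43, limma adjusted p = 0.139). ID3, its relative, stood at 169, 164 and 106 FPKM against 394 and 1012 (limma adjusted p = 0.213). SMAD7, the inhibitory SMAD, stood at 8.65, 7.25 and 5.87 FPKM against 27.7 and 65.7 (limma adjusted p = 0.173), and SMAD9 at 5.00, 0 and 6.68 against 70.9 and 21.0 (limma adjusted p = 0.288). In each of these genes the BMP6 libraries lay above all genistein libraries. The genistein libraries of ID2 overlapped with its 275 to 385 FPKM in DMSO, and those of SMAD7 lay below its 8.93 to 16.4 FPKM in DMSO. ID1 overlapped between the treatments, with 421 to 993 FPKM after genistein and 804 and 5603 FPKM after BMP6. In all, 7 of the 17 had genistein libraries below both BMP6 libraries, against 13% of all tested genes. A further fit also held the DMSO libraries, so that 3 groups shared the spread. There 3 of the 17 passed, all lower (HAMP, ATOH8 and ID2), against 0.75% of all genes.

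A few members of the list went the other way. FST, the gene of the activin and BMP antagonist follistatin, stood at 2146, 1583 and 1467 FPKM after genistein and at 640.1 and 1246 FPKM after BMP6 (log2 difference 0.93 ± 0.47, limma adjusted p = 0.484), with 232 to 662 FPKM in DMSO. HEY1, a Notch and BMP responsive repressor, stood at 10.7, 7.81 and 10.3 FPKM against 4.14 and 4.89 (limma adjusted p = 0.466) and was listed at 0 in DMSO. The list's median log2 difference was -0.50, against 0.13 over all tested genes, and it turned positive (1.03) without BMP6 2, whereas it was -1.66 without BMP6 1. The log2 difference of HAMP was -7.90 without BMP6 1 and -6.57 without BMP6 2. Each of these fits holds 1 BMP6 library, so neither carries the spread between BMP6 libraries.

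**Figure D1:**
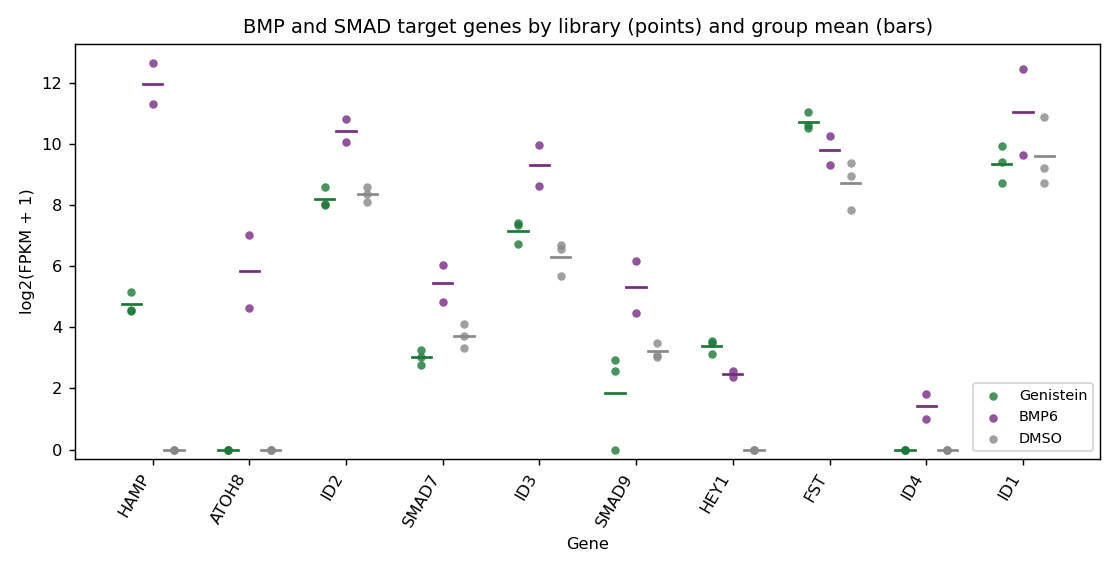
Levels of 10 of the 17 tested BMP and SMAD target genes, as log2(FPKM + 1) on the vertical axis, with 1 point per library and a bar at the group mean. HAMP stands at 2563 and 6425 FPKM in the BMP6 libraries against 22.2 to 34.4 FPKM in the genistein libraries and 0 in DMSO, while HEY1 and FST have every genistein point above both BMP6 points.

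Across the transcriptome, 37 of 12160 tested genes passed the threshold (limma adjusted p below 0.05 over all tested genes), which is 0.304% of them. That share is the reference for each list below in which no gene passed. After genistein 24 of the 37 were higher (0.197% of all tested genes) and 13 lower (0.107%) than after BMP6. In all 37 the libraries of the treatments did not overlap, as in 29.9% of all tested genes. In 19 of the 37 a treatment was listed at 0 in all of its libraries: 16 genes higher after genistein had both BMP6 libraries at 0, and 3 lower genes had all genistein libraries at 0. Such a group adds no spread of its own, an exact 0 can be a failed estimate, and among genes above 0 in all 5 libraries 4 passed (SLC2A3, HAMP, AQP3 and TMEM37). None of the 37 passed without genistein 1, without genistein 2 or without genistein 3, and 0 genes in all then passed by limma, with 807, 1191 and 840 genes at an unadjusted p below 0.05 against 1541 with all 5 libraries. Fits without BMP6 1 or without BMP6 2 rest on 1 BMP6 library, so no spread between BMP6 libraries enters their counts. With median-of-ratios scaling 57 genes were higher and 72 lower, and the median log2 difference of all genes moved by -0.19, from 0.13 to -0.05. The log2 differences of the 37 called genes are all larger in size than that shift. The threshold selects large differences, so this does not show how scaling bears on the calls.

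**Figure D2:**
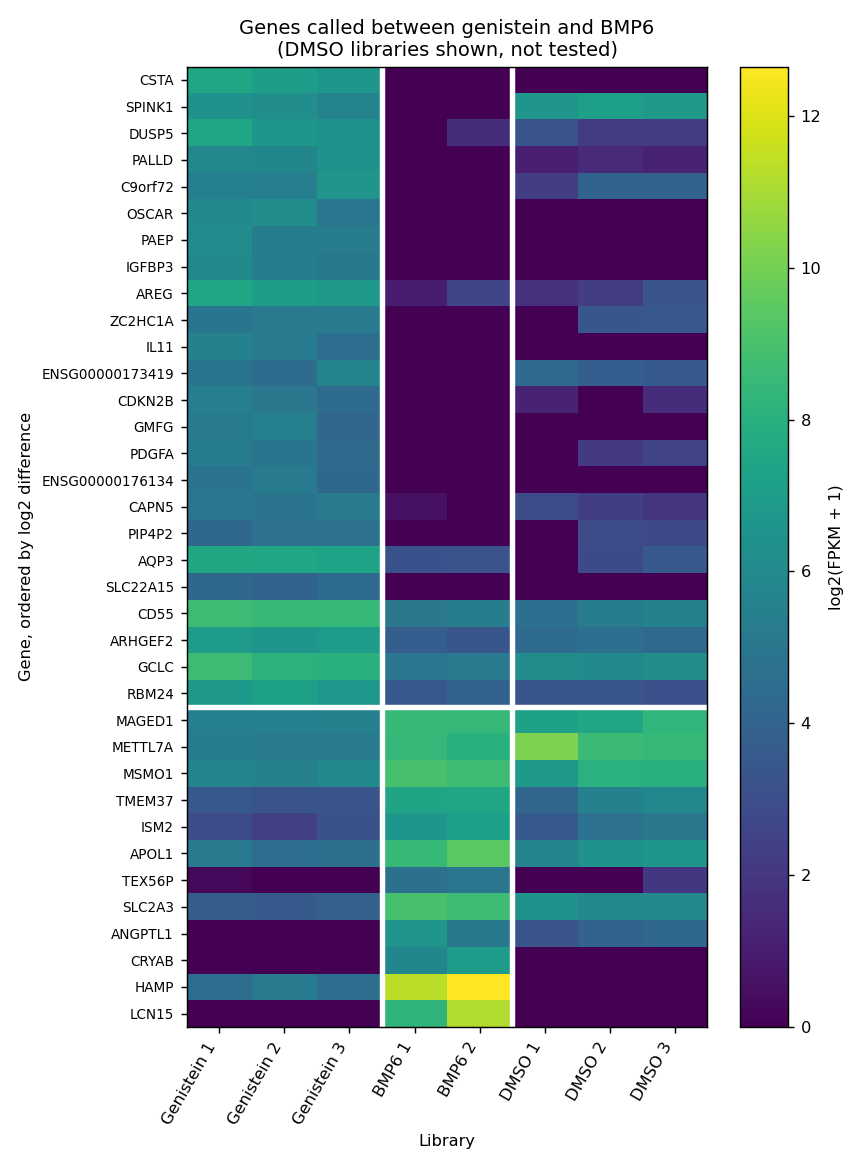
Heat map of log2(FPKM + 1) for 36 of the 37 genes that passed between genistein and BMP6, with genes in rows ordered by the log2 difference and the 8 libraries in columns. The upper 24 rows are higher in the 3 genistein libraries and the lower 12 in the 2 BMP6 libraries. The DMSO columns took no part in the test, and their mean lies nearer to BMP6 in 21 of the 24 higher genes and nearer to genistein in 8 of the 12 lower ones shown.

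**Figure D3:**
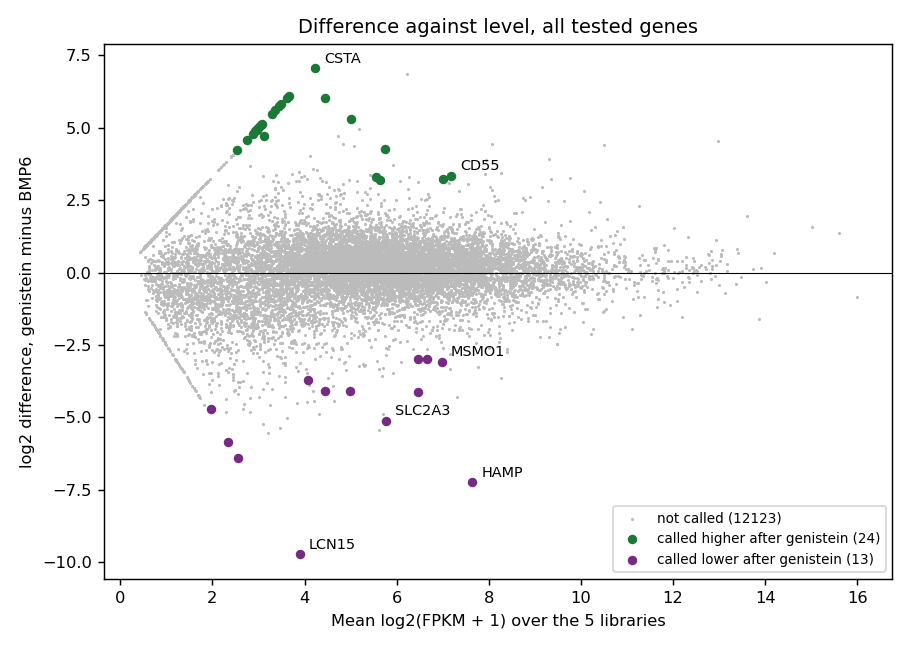
Log2 difference (genistein minus BMP6) on the vertical axis against the mean log2(FPKM + 1) over the 5 libraries, with 1 point per tested gene. The called genes, 24 above and 13 below 0, stand away from the bulk of the genes, and LCN15 and HAMP are the lowest points; the straight edges on the left are genes listed at 0 in 1 treatment.

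Among the genes higher after genistein, several were listed at 0 under BMP6 and in the vehicle. CSTA, the gene of the protease inhibitor cystatin A, stood at 173, 134 and 98.7 FPKM after genistein and was listed at 0 in both BMP6 and all DMSO libraries (limma adjusted p = 0.0284). PAEP, the gene of glycodelin, stood at 71.2, 38.1 and 39.5 FPKM, IGFBP3, an insulin-like growth factor carrier, at 64.2, 39.0 and 34.0 FPKM, and IL11, a cytokine of the gp130 receptor family, at 45.5, 35 and 23.0 FPKM after genistein. All of them were listed at 0 in both BMP6 and all DMSO libraries (limma adjusted p = 0.0347, 0.0347 and 0.0438). OSCAR, an immunoglobulin-like receptor gene, SLC22A15, a solute carrier gene, and GMFG, which encodes a regulator of actin branching, had the same pattern, at 29.9 to 73.9, 15.5 to 20.5 and 16.8 to 42.6 FPKM after genistein. PDGFA, a platelet-derived growth factor chain, stood at 40.7, 29.4 and 19.7 FPKM after genistein, was listed at 0 after BMP6 and reached 4.87 FPKM in DMSO. CD55, the complement decay-accelerating factor, was measured in every library, at 402, 352 and 345 FPKM after genistein and at 31.6 and 38.7 FPKM after BMP6 (log2 difference 3.35 ± 0.33, limma adjusted p = 0.0438). Its DMSO libraries, at 23.7 to 45.4 FPKM, spanned the BMP6 values.

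Others were measured in DMSO libraries too. AQP3, a water and glycerol channel, stood at 192, 173 and 159.7 FPKM after genistein and at 8.03 and 8.36 FPKM after BMP6 (log2 difference 4.25 ± 0.33, limma adjusted p = 0.0315), although it did not pass with all 8 libraries in the fit (adjusted p = 0.0704). CDKN2B, the cyclin-dependent kinase inhibitor p15, stood at 41.2, 31.7 and 20.5 FPKM after genistein and was listed at 0 after BMP6 (limma adjusted p = 0.0438). PALLD, the gene of the actin scaffold palladin, stood at 56.3, 54.9 and 85.5 FPKM after genistein, was listed at 0 after BMP6 and lay between 1.11 and 1.95 FPKM in DMSO. ARHGEF2, an activator of the small GTPase RhoA, had a log2 difference of 3.30 ± 0.36, and RBM24, an RNA-binding protein gene, of 3.21 ± 0.37. The calpain gene CAPN5, the phosphoinositide phosphatase gene PIP4P2, ZC2HC1A and C9orf72 also passed, with 18.5 to 95.4 FPKM over their genistein libraries and at most 0.477 FPKM after BMP6. The remaining 2 higher genes carry IDs without a symbol. SPINK1, a secreted trypsin inhibitor gene, was high in the vehicle as well. It stood at 85.0, 73.8 and 49.4 FPKM after genistein and at 94.9 to 139.9 FPKM in DMSO, and was listed at 0 in both BMP6 libraries (limma adjusted p = 0.0284).

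The genes lower after genistein included both genes that appeared under BMP6 and genes that fell short of the vehicle level under genistein. LCN15, a lipocalin gene (hg18, chromosome 9, 138773907 to 138778786), stood at 314 and 2286 FPKM in BMP6 1 and 2, and CRYAB, the gene of the small heat shock protein alpha-B crystallin, at 54.9 and 126 FPKM. Both were listed at 0 in all genistein and DMSO libraries (limma adjusted p = 0.0347 each). SLC2A3, the glucose transporter GLUT3, stood at 12.2, 10.8 and 13.9 FPKM after genistein and at 495 and 424 FPKM after BMP6 (log2 difference -5.12 ± 0.34, limma adjusted p = 0.0284). Its DMSO libraries, at 56.9 to 89.0 FPKM, lay between the treatments. APOL1, an apolipoprotein L of high density lipoprotein, stood at 37.2, 22.6 and 24.2 FPKM against 355 and 675 (log2 difference -4.11 ± 0.45). TMEM37 stood at 8.70 to 10.1 FPKM against 166 and 179.9, and ISM2, a secreted isthmin gene, at 4.24 to 7.84 FPKM against 101 and 139. The DMSO libraries of these 3 genes lay between the treatments, at 48.9 to 97.7, 17.2 to 59.2 and 10.9 to 31.7 FPKM.

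ANGPTL1, an angiopoietin-like gene, was listed at 0 in all genistein libraries and stood at 96.3 and 33.4 FPKM after BMP6 and at 8.69 to 17.5 FPKM in DMSO. MAGED1, a melanoma antigen family gene, had nearly equal libraries within each treatment, at 42.7, 43.4 and 45.0 FPKM after genistein and 349 and 346 FPKM after BMP6 (log2 difference -2.96 ± 0.31, limma adjusted p = 0.0438). METTL7A, a methyltransferase gene of lipid droplets, stood at 39.7, 36.9 and 35.4 FPKM against 348 and 264 (limma adjusted p = 0.0471), and at 344 to 1128 FPKM in DMSO. TEX56P, also lower, was listed at 0 or 0.203 FPKM after genistein and stood at 24.1 and 29.8 FPKM after BMP6. It did not hold an OK status in all 5 libraries. Of the 13 processing alternatives that gave it a value it passed in 6, the fewest among the called genes. Set beside the vehicle on the log2 scale, the DMSO mean lay nearer to BMP6 than to genistein in 21 of the 24 higher genes, the others being SPINK1, C9orf72 and an ID without a symbol. Among the 13 lower genes it lay nearer to genistein in 8 and nearer to BMP6 in 5, among them ANGPTL1, MAGED1, METTL7A and MSMO1. These positions are a description, as the DMSO libraries were not tested here.

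All 24 tested cholesterol synthesis genes had a negative log2 difference, also without any single library and under both scalings tried, and 21 of the 24 had genistein libraries below both BMP6 libraries, against 13% of all tested genes. The median was -1.98, against 0.13 over all genes, and it was -2.36 without BMP6 1 and -1.74 without BMP6 2. Of the 24, 2 passed, MSMO1 among them, against 0.107% called lower among all genes. MSMO1, a methylsterol oxidase of the pathway, stood at 51.5, 44.6 and 64.1 FPKM against 499 and 406 (log2 difference -3.07 ± 0.35, limma adjusted p = 0.0493). LSS, the lanosterol synthase, missed the threshold at 24.1, 16.5 and 18.7 FPKM against 148 and 193 (limma adjusted p = 0.0578), as did ACAT2, an acetyl-CoA acetyltransferase, at 112, 60.9 and 99.2 FPKM against 657 and 1080 (limma adjusted p = 0.0746). With the DMSO libraries added to the fit, so that 3 groups shared the spread, 8 of the 24 passed, all lower, against 0.75% of all genes, and MSMO1, LSS, ACAT2, HMGCS1, HSD17B7 and DHCR7 were among them.

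HSD17B7, which encodes a reductase of the route, stood at 12.4, 12.5 and 13.1 FPKM after genistein and at 104 and 67.0 FPKM after BMP6 (limma adjusted p = 0.0835). The DMSO libraries lay between the treatments for each of these genes, at 109.8 to 267 FPKM for MSMO1, 91.8 to 141 FPKM for LSS, 333 to 399 FPKM for ACAT2 and 23.0 to 42.0 FPKM for HSD17B7. Fatty acid and triglyceride synthesis genes had no call among 16 tested, with 13 negative and a median of -1.38. SCD, the stearoyl desaturase, came nearest, at 186, 144 and 144 FPKM against 943 and 1153 (log2 difference -2.73 ± 0.35, limma adjusted p = 0.0643). With all 8 libraries in the fit, 4 of the 16 passed, all lower, against 0.75% of all genes.

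**Figure D4:**
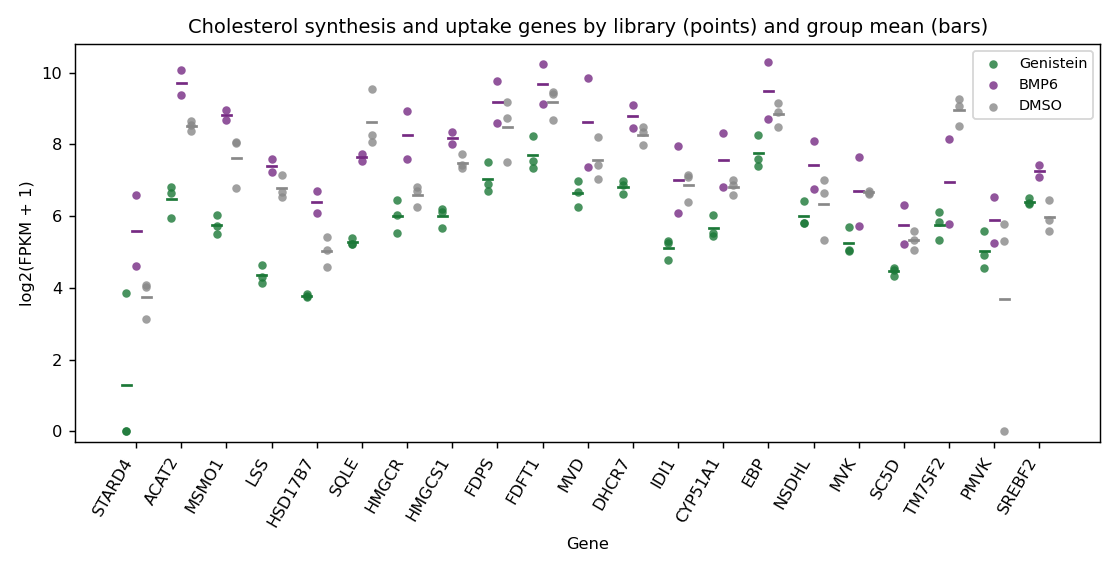
Levels of 21 of the 24 tested cholesterol synthesis and uptake genes as log2(FPKM + 1) on the vertical axis, ordered by their log2 difference, with 1 point per library and a bar at the group mean. In 19 of the 21 genes shown every genistein point lies below both BMP6 points, and MSMO1 stands at 44.6 to 64.1 FPKM after genistein against 406 and 499 FPKM after BMP6.

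Of 27 tested genes that respond to ERK signalling or feed back on it, DUSP5 and AREG passed, both higher after genistein, against 0.197% called higher among all genes. Among the 27, 26 had a positive difference, with a median of 1.39 against 0.13 over all genes, and 13 had all genistein libraries above both BMP6 libraries, against 16.9% of all genes. DUSP5, the nuclear phosphatase of ERK, stood at 175, 101 and 86.8 FPKM after genistein, at 0 and 2.12 FPKM after BMP6, with DMSO libraries of 3.74 to 8.61 FPKM (limma adjusted p = 0.0438). AREG, the EGF receptor ligand amphiregulin, stood at 170.4, 136 and 115 FPKM against 1.03 and 5.17, with 2.53 to 9.03 FPKM in DMSO (log2 difference 5.30 ± 0.57, limma adjusted p = 0.0438). EREG, the related ligand epiregulin, was listed at 0 in both BMP6 and all DMSO libraries and stood at 7.4, 10.3 and 16.9 FPKM after genistein (limma adjusted p = 0.102). EGR1, an immediate early transcription factor, stood at 417, 479 and 412 FPKM against 79.2 and 32.5 (limma adjusted p = 0.088), and its DMSO libraries, at 147 to 185 FPKM, lay between the treatments. FOSL2 was the member with a negative difference, at 34.4 to 37.7 FPKM against 62.2 and 52.1. With all 8 libraries in the fit, 4 of the 27 passed, all higher (DUSP5, AREG, EGR1 and EREG), against 0.64% of all genes. Under the scalings tried, 23 and 25 of the 27 were positive, and 23 to 25 of the 26 or 27 tested without single libraries. The median was 0.80 without BMP6 1 and 1.88 without BMP6 2.

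Of the NRF2 target genes GCLC passed. GCLC, the catalytic subunit of glutathione synthesis and a member of the NRF2 list, stood at 412, 278 and 263 FPKM after genistein and at 29.8 and 35.3 FPKM after BMP6 (log2 difference 3.22 ± 0.37, limma adjusted p = 0.0493). Its DMSO libraries, at 64.9 to 74.3 FPKM, lay between the treatments. GCLM, the modifier subunit, stood at 62.0, 53.8 and 42.4 FPKM against 6.31 and 8.87 (limma adjusted p = 0.0876). Other NRF2 targets differed in direction: AKR1C2 and AKR1C3, aldo-keto reductases whose reads could be split between near-identical copies, stood lower after genistein than after BMP6, at 2200 to 3228 against 3792 and 6078 FPKM and at 1681 to 2552 against 2996 and 3144 FPKM. HMOX1, heme oxygenase, stood at 20.5 to 38.2 FPKM against 82.6 and 305 (limma adjusted p = 0.221). By the test 1 of 21 NRF2 list members was higher, against 0.197% of all genes, and none lower. Their median was 0.66 with 16 positive, and it was 0.25 with 12 positive without BMP6 1. All genistein libraries lay above both BMP6 libraries in 8 members and below them in 3, against 16.9% and 13% of all genes. With all 8 libraries in the fit, 2 of the 21 passed, both higher (GCLC and GCLM), against 0.64% of all genes.

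None of 31 tested ATF4 and amino acid response genes passed, against 0.304% of all tested genes. All genistein libraries lay above both BMP6 libraries in 13 of the 31 and below them in 2, against 16.9% and 13% of all genes. The median of the 31 was 0.85 and 28 were positive. Positive members numbered 26 and 28 under the scalings tried and 22 to 28 without single libraries. The list median was 0.36 without BMP6 1 and 1.30 without BMP6 2. DDIT3, which encodes the stress factor CHOP, stood at 961, 886 and 609 FPKM after genistein against 52.8 and 100.3 FPKM after BMP6 (log2 difference 3.45 ± 0.44, limma adjusted p = 0.0647), and its DMSO libraries, at 64.7 to 102 FPKM, lay at or near the BMP6 values. ATF3, a stress-induced repressor, stood at 116, 80.7 and 99.4 FPKM against 13.4 and 23.6 (limma adjusted p = 0.112). ASNS, asparagine synthetase, showed another pattern, with 1902, 1531 and 1310 FPKM after genistein, 218 and 368 FPKM after BMP6 and 81.2 to 124 FPKM in DMSO, so that both treatments lay above the vehicle. With all 8 libraries in the fit, 3 of the 31 passed, all higher (DDIT3, ATF3 and ASNS), against 0.64% of all genes. GDF15, the stress cytokine, differed widely between the BMP6 libraries, at 346 and 4263 FPKM, and was measured at 14751 to 48045 FPKM after genistein (limma adjusted p = 0.234).

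**Figure D5:**
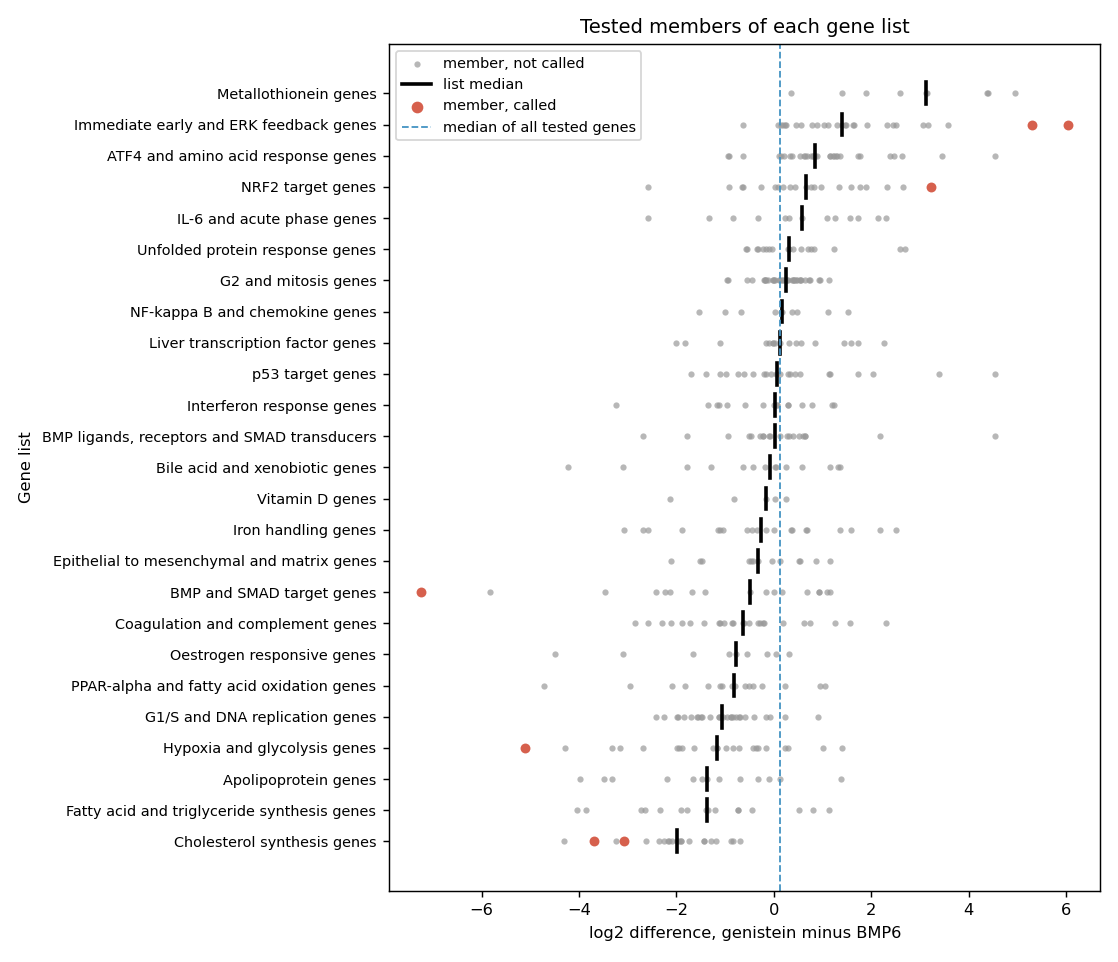
Log2 differences (genistein minus BMP6) on the horizontal axis for the tested members of 25 gene lists, 1 row per list, with grey points for members that were not called, red points for called members and a black bar at the list median. Cholesterol synthesis lies lowest, with a median of -1.98 and all 24 members below 0, and metallothioneins highest, at 3.11, against the dashed line at the median of all genes, 0.13.

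SLC2A3 was the 1 of 23 tested hypoxia and glycolysis genes that passed, against 0.107% of all genes called lower. In 14 of the 23, SLC2A3 included, the genistein libraries lay below both BMP6 libraries, against 13% of all genes, and in 2 they lay above. The median was -1.17 (-1.37 without BMP6 1 and -0.74 without BMP6 2). PFKFB4, a regulator of the glycolytic rate, stood at 6.58, 4.05 and 6.13 FPKM against 66.1 and 62.2 (limma adjusted p = 0.0583). SLC2A1, the transporter GLUT1, stood at 466, 420.1 and 542 FPKM against 1859 and 1659 (limma adjusted p = 0.139), and LDHA, lactate dehydrogenase A, at 1201 to 1357 FPKM against 5619 and 4368 (limma adjusted p = 0.173). The DMSO libraries of SLC2A1, at 394 to 703 FPKM, and of LDHA, at 881 to 1554 FPKM, lay beside genistein. VEGFA, the angiogenic factor, went the other way, at 355 to 464 FPKM against 191 and 206 (limma adjusted p = 0.314).

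Genes of DNA replication had no call among 28 tested. Of these, 26 had a negative difference, also under both scalings, and 15 had genistein libraries below both BMP6 libraries, against 13% of all genes, with a median of -1.06 (-1.56 without BMP6 1 and -0.68 without BMP6 2). MCM3, a subunit of the replicative helicase, stood at 195, 141 and 155 FPKM after genistein and at 761 and 785 FPKM after BMP6 (log2 difference -2.25 ± 0.34, limma adjusted p = 0.0882). PCNA, the sliding clamp, stood at 514, 512 and 522 FPKM against 977 and 1312 (limma adjusted p = 0.296). Of 36 genes of G2 and mitosis none passed. Of these, 25 were positive with a median of 0.25, against 19 positive and a median of 0.05 with median-of-ratios scaling. MKI67, the proliferation marker, stood at 59.7 to 74.5 FPKM against 63.6 and 84.9. NUF2, a kinetochore gene, and KIF20A, a mitotic kinesin, had the smallest p of that list, with log2 differences of 0.95 ± 0.37 and -0.95 ± 0.36.

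Iron handling genes other than HAMP had no call among 20 tested. TMPRSS6, the protease that restrains hepcidin, stood at 3.49, 4.04 and 2.75 FPKM after genistein and at 23.2 and 32.0 FPKM after BMP6 (log2 difference -2.69 ± 0.45, limma adjusted p = 0.112). Its DMSO libraries, at 19.8 to 24.2 FPKM, lay at or just below the BMP6 values. FBXL5, the ubiquitin ligase subunit that senses iron and degrades iron regulatory protein, went the other way, at 77.4, 79.2 and 69.6 FPKM after genistein, 9.60 and 16.0 FPKM after BMP6 and 51.5 to 54.6 FPKM in DMSO (log2 difference 2.51 ± 0.38, limma adjusted p = 0.088). TMPRSS6 and FBXL5 passed with all 8 libraries in the fit (adjusted p = 0.0205 and 0.0151). The transferrin receptor gene TFRC had 922 and 158 FPKM in the BMP6 libraries and 144 to 291 FPKM after genistein, so the treatments overlapped.

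None of the 13 acute phase, 25 coagulation and complement or 13 apolipoprotein genes tested in these lists passed. FGG, the gamma chain of fibrinogen, stood at 4566, 4337 and 5180 FPKM after genistein and at 1367 and 648 FPKM after BMP6 (log2 difference 2.31 ± 0.50, limma adjusted p = 0.182), and FGA and FGB, its other chains, had differences of 1.57 ± 0.40 and 1.26 ± 0.40. The FGA and FGG libraries of both treatments lay below all DMSO libraries, at 8737 to 13126 and 6642 to 9037 FPKM. SAA4, a serum amyloid gene, stood at 69.6 to 199 FPKM against 468 and 1203 (limma adjusted p = 0.213). F11, coagulation factor XI, stood at 33.6, 25.8 and 38.1 FPKM against 189.8 and 138 (limma adjusted p = 0.101), and CFI, complement factor I, at 71.5 to 128 FPKM against 368 and 354 (limma adjusted p = 0.156). Of 25 tested coagulation and complement genes 19 were negative, with a median of -0.63. It was -0.25, with 13 negative and 11 positive, without BMP6 2, and -0.27 without genistein 2. Of 13 apolipoprotein genes 11 were negative with a median of -1.36, which was -0.54 with 7 of 12 negative without BMP6 2. APOA5, a regulator of plasma triglycerides, came nearest to the threshold at 14.9 to 26.2 FPKM against 139 and 268 (limma adjusted p = 0.0765). CYP24A1, the vitamin D hydroxylase, stood at 19.4, 14.7 and 25.8 FPKM after genistein and at 80.3 and 97.3 FPKM after BMP6 (limma adjusted p = 0.134), both above the 0 to 1.79 FPKM in DMSO, while VDR, the vitamin D receptor, stayed at or below 2.93 FPKM in all 8 libraries.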

How the data were processed

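PolyA RNA of HepG2 cells was sequenced on a Genome Analyzer II, per the labels' protocols. The deposited files hold 1 FPKM value per Ensembl gene and library, per the file headers. The submitters' processing notes name hg18, Bowtie, TopHat 1.1.0, Cuffdiff and Cufflinks 1.0.3, and settings and scaling are not given in the sources used here. Depth is unknown, so no counting interval or floor was computed.

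Of 20897 genes, 19069 received a symbol through a table of gene names. Coordinates are hg18, as in the files, with starts counted from 1. The test took the 12160 genes that reached 1 FPKM in 2 or more of the 5 libraries. Values were taken as log2(FPKM + 1) without further scaling, so a difference understates the change of low genes. The median-of-ratios size factors were 0.703 for BMP6 1, 1.20 for BMP6 2 and 0.949 to 1.24 for the genistein libraries. FPKM are printed without division by these factors. The test was limma 3.58.1 (R 4.3.3) with a variance trend, on the 3 genistein and 2 BMP6 libraries only. It was two-sided, p-values were adjusted by Benjamini and Hochberg across the whole tested table, and the threshold was 0.05 (3 residual and 2.86 prior degrees of freedom). HAMP was also tested by exact permutation (SciPy 1.17.1). Gene lists are described by counts and medians, with no set test. Transcript lengths are those of the longest GENCODE v29 transcripts (95.1% of tested genes).

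The comparison, the lists and the naming rule were chosen with earlier results of these data known. The rule takes HAMP and up to 8 BMP targets with the smallest p, the 10 largest called rises and falls, and the leading 2 or 4 members of lists. ID1, FOSL2, AKR1C2, AKR1C3, HMOX1, ASNS, GDF15, SCD, FST, HMGCS1, HSD17B7, DHCR7, PFKFB4, SLC2A1, LDHA, VEGFA, MCM3, PCNA, MKI67, TFRC, FGA, FGB, APOA5, the marker genes, the genes of the closing section and the other called genes were named after their values were seen. A few genes are not reported here by name and stay in the counts. Alternatives covered the pseudocount, filters, scaling, library weights, the variance trend, all 8 libraries in 1 fit, a replicate block and leaving out each library.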

Additional observations from a re-analysis of the deposited data

How the results depend on the processing

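The count of 37 called genes (24 higher, 13 lower) depended on the processing. The direction of all 37 was the same under each of the 17 alternatives that gave a value. Their libraries did not overlap between the treatments, so leaving out a library or changing the pseudocount could not reverse a direction. The count was 19 (14 and 5) with a pseudocount of 0.1 and 25 (11 and 14) with a pseudocount of 5. It was 21 (13 and 8) with a mean of at least 5 FPKM and 4 (1 and 3) among genes above 0 in all 5 libraries. It was 129 (57 and 72) with median-of-ratios scaling, 129 (68 and 61) with quantile normalization, 74 (34 and 40) without the variance trend and 176 (81 and 95) with all 8 libraries in the fit, where 36 of the 37 passed. With arrayWeights it was 0 (0 and 0) by limma, with 975 genes at an unadjusted p below 0.05. Without 1 library it ranged from 0 to 478 (0 to 390 higher, 0 to 88 lower): it was 0 without any genistein library, and where a BMP6 library was left out the other was assumed to vary like the genistein libraries. It was 40 without a filter and 35 among genes with an OK status, both within 1.5 times the main count. The log2 difference of HAMP ranged from -7.90 to -6.57 without 1 library, and its call was lost with arrayWeights (-7.30, adjusted p = 0.0576) and without any genistein library. The cause of these differences was not tested, apart from the fewer libraries or genes that some fits hold by construction.

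Genistein and BMP6 libraries share the replicate numbers 1 and 2, which no label ties to a shared batch. With the number as a replicate block 106 genes passed (46 higher, 60 lower), 31 of the 37 among them. Deviations from the group means correlated at -0.263 for the libraries numbered 1 and at 0.296 for those numbered 2. The largest value, 0.616, was that of genistein 3 with BMP6 1, which share no number. The deviations of the BMP6 pair mirror each other, so these values are not separate.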

Other observations

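Metallothioneins, small zinc and copper binding proteins, had the highest median of any list, 3.11 over 9 tested genes, with all 9 positive and none called. MT2A stood at 4672, 13027 and 1952 FPKM after genistein and at 49.0 and 1077 FPKM after BMP6 (log2 difference 4.41 ± 1.44, limma adjusted p = 0.303). Both groups spread widely, the median ranged from 1.88 to 4.52 without single libraries, and reads of these short near-identical transcripts could be split among copies. DNAJB9, a chaperone of the endoplasmic reticulum, stood at 127, 174 and 177 FPKM after genistein, at 28.2 and 22.8 FPKM after BMP6, with a DMSO range of 22.2 to 29.4 FPKM (limma adjusted p = 0.0746), in a list of 19 unfolded protein response genes with no call and a median of 0.31 (0.10 to 0.69 without single libraries).

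GPER1, the G protein-coupled oestrogen receptor gene, stood at 14.7, 11.5 and 8.81 FPKM after genistein and at 86.4 and 128 FPKM after BMP6, with 78.8 to 133 FPKM in DMSO (log2 difference -3.09 ± 0.41, limma adjusted p = 0.0734). CDKN1A, the cyclin-dependent kinase inhibitor p21 and a p53 target, stood at 149 to 226 FPKM after genistein and at 118 and 267 FPKM after BMP6 (log2 difference 0.06 ± 0.47), and the 23 tested p53 targets had no call and a median of 0.06, which was -0.13 with median-of-ratios scaling. Genes nearest outside the threshold included NUDT6, which was at 0 in every genistein library and measured 22.7 and 22.4 FPKM after BMP6, and JAG1, a Notch ligand gene, at 352, 281 and 369 FPKM after genistein and 30.4 and 48.4 FPKM after BMP6 (limma adjusted p of 0.0562 and 0.0578). Their adjusted p lay close to that of GMFG, the last gene inside the threshold (limma adjusted p = 0.0499). The log2 difference of NUDT6, -4.56, was near that of GMFG, 4.94, in size and opposite in sign, and that of JAG1 was 3.08.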
